A study of Mus musculus with 2 samples.

Results

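The cells described here are the B cells of the mouse heart whose transcripts place them in the cell division cycle. They were chosen from 2 droplet libraries by measured values: a droplet had to hold at least 2000 unique molecular identifiers (UMIs, the tags that count single captured transcripts) over all genes, at most 10% of them from mitochondrial genes, at least 1 UMI of Cd79a, which encodes a signaling chain of the B cell receptor, and a UMI of at least 3 of the 7 genes Mki67, Top2a, Birc5, Ube2c, Cdk1, Pclaf and Rrm2. This gave 75 cycling cells among 5688 Cd79a cells, of which 20 were among 2077 cells of the neonatal library and 55 were among 3611 cells of the adult library. Both libraries came from wild-type C57BL6/J hearts that carried no engineered allele and received no treatment. The neonatal library was made from male and female mice of 2 weeks (15 days in its title), the adult library from male mice of 8 weeks, and each pooled B cells of 6 mice that had been sorted alive by flow cytometry. The hearts were perfused and digested with collagenase, DNase and hyaluronidase before the sort, so that vascular and tissue B cells were not separated. With 1 library per age there was no test, age and library cannot be told apart, and every interval given below is a 95% interval that covers counting error only.

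B lymphocytes mostly rest outside the cell cycle. They divide in bursts, first as pro-B and pre-B cells that rearrange their receptor genes, later as B1 cells that renew themselves or as mature cells that have met antigen and go on to form germinal centers or antibody-secreting plasmablasts. A dividing cell first makes deoxynucleotides and copies its DNA in S phase, then builds the mitotic spindle and the regulators of chromosome separation in G2 phase and mitosis, and the transcripts for each task are made in that order.

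The 7 genes that chose the cells cover both tasks. Rrm2 (ENSMUSG00000020649, GRCm38 chr12:24708241-24714146, plus strand) encodes a subunit of the enzyme that makes deoxynucleotides, and Pclaf (ENSMUSG00000040204, chr9:65890237-65903266, plus strand) a partner of the replication clamp. Cdk1 (ENSMUSG00000019942, chr10:69335146-69352938, minus strand) is the kinase that starts mitosis, Top2a (ENSMUSG00000020914, chr11:98992943-99024189, minus strand) untangles the copied chromosomes, Mki67 (ENSMUSG00000031004, chr7:135689784-135716361, minus strand) keeps mitotic chromosomes apart, Birc5 (ENSMUSG00000017716, chr11:117849251-117855743, plus strand) is part of the complex that checks their attachment, and Ube2c (ENSMUSG00000001403, chr2:164769898-164778822, plus strand) marks mitotic regulators for destruction. Promoters of mitotic genes are known for 2 short elements, the CCAAT box (CCAAT) and the cell cycle genes homology region or CHR (TTTGAA). Both words were searched on both strands, without counting overlapping matches of the same word, in RefSeq windows of 250 bases before and 50 after each gene's start (build GRCm38.p6). The promoters of 3 of the genes are shown as examples of windows that hold both elements; each is given for the 200 bases before the start, 5′ to 3′ on the gene's strand, with the matches in capitals.
Ube2c: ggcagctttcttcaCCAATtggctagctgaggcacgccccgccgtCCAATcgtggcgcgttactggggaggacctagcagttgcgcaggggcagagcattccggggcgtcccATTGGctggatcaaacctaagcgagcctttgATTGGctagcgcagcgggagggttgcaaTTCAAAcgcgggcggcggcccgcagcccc
Cdk1: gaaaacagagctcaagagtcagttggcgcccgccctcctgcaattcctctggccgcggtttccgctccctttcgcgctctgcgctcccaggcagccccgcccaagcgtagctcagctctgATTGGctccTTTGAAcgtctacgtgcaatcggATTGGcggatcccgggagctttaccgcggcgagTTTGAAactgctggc
Top2a: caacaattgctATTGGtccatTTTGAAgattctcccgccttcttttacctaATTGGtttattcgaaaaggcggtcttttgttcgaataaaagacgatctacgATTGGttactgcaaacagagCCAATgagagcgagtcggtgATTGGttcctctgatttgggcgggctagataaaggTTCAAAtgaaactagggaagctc
The windows lay at chr2:164769729-164769928 (plus strand) for Ube2c, at chr10:69352913-69353112 (minus strand) for Cdk1 and at chr11:99024190-99024389 (minus strand) for Top2a. They are counted from the RefSeq starts, so those of Ube2c and Cdk1 reach into the gene coordinates given above, while that of Top2a does not. The stretch of Ube2c held 4 CCAAT boxes and 1 CHR, that of Cdk1 2 and 2, and that of Top2a 5 and 2. Over the full windows, a CCAAT box was found for 6 of the 7 genes (85.7%), against 37.4% of 32851 windows of all genes, and a CHR for 4 of the 7 (57.1%), against 17.9%. Of 38 windows belonging to 35 of the 43 genes of a list of G2 and mitosis genes, which holds none of the 7, 29 (76.3%) held a CCAAT box and 23 (60.5%) a CHR. A match is a description of the letters and not of a bound site.

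Before any result, 2 features of the libraries bear on these cells. First, 110 cell barcodes held at least 500 UMIs in both libraries, and they included 15 of the 20 neonatal and 6 of the 55 adult cycling cells. The other library held a median of 2.18% (highest 2.31%) of the neonatal cycling cells' UMIs and 1.05% (highest 1.96%) of the adult cycling cells' UMIs under these barcodes, no cycling cell had 2000 UMIs in both, and none had more UMIs in the other library. The shared barcodes belonged to deep cells, with a median of 39036 UMIs in the 15 neonatal cells. Second, most cycling cells were among the deeper cells of their library, although most deep cells were not cycling. Their UMIs per cell ran from 10750 to 71755 with a median of 31060 in the neonatal library and from 5736 to 81002 with a median of 26665 in the adult library, 5.2 and 4.4 times the medians of the other Cd79a cells (5969 and 6020). A like share in the adult library, a median of 2.11%, was seen for the other neonatal Cd79a cells. The 5 neonatal cycling cells without a shared barcode were the 5 shallowest, cells 16 to 20 counted from the deepest, with 10750 to 14587 UMIs. Among the neonatal cycling cells, depth and a shared barcode therefore cannot be told apart. For many results below, the value in these 5 cells or against other cells of like depth is given as well. The libraries held 26866958 (neonatal) and 49500780 (adult) gene UMIs in all.

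The share of cycling cells was 0.963% (exact Clopper-Pearson interval 0.589 to 1.48%) in the neonatal library and 1.52% (1.15 to 1.98%) in the adult library. When each cell was thinned at random to 2000 UMIs before the rule was applied, 14 neonatal cells (0.674%, 0.369 to 1.13%) and 25 adult cells (0.692%, 0.449 to 1.02%) still met it, so that at equal depth the intervals of the libraries overlapped almost wholly. All 14 and all 25 were among the cells chosen at full depth. The share climbed with the UMIs per cell in both libraries. It was 0 of 1407 neonatal cells with 4000 to 8000 UMIs (upper bound 0.262%), 5 of 412 (1.21%) with 8000 to 16000, 5 of 105 (4.76%) with 16000 to 32000 and 10 of 29 (34.5%, 17.9 to 54.3%) with more. In the adult library the same bins gave 3 of 1489 (0.201%), 4 of 904 (0.442%), 30 of 360 (8.33%) and 18 of 130 (13.8%, 8.42 to 21.0%). Without the shared barcodes, 5 neonatal cells (0.248%) and 49 adult cells (1.37%) were left.

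**Figure D1:**
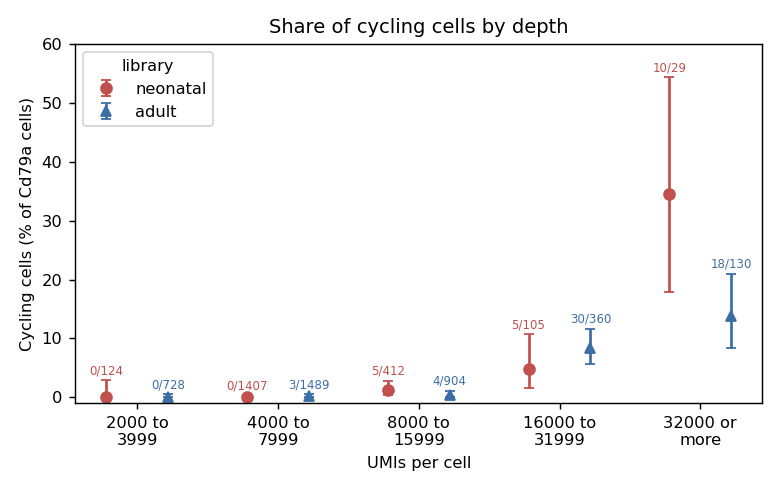
Share of Cd79a cells that met the rule (percent, vertical axis) by the number of gene UMIs in the cell (horizontal axis), in the neonatal and the adult library, with exact 95% intervals and the number of cycling and of all cells at each point. No neonatal cell under 8000 UMIs met the rule, and the share reached 34.5% in neonatal and 13.8% in adult cells with 32000 UMIs or more.

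The values that chose the cells are given as a description only. Per cycling cell, the summed UMIs of the 7 genes per 10000 UMIs of the cell ran from 0.697 to 107, with a median of 39.6, in the neonatal library and from 0.733 to 79.8, with a median of 16.7, in the adult library. All 7 genes had a UMI in 11 neonatal and 20 adult cells. Just outside the rule stood 19 neonatal cells with 2 of the genes (2 to 5 UMIs of them, median 3) and 26 adult cells (median 2, highest 6), and just inside it 1 neonatal cell with 3 genes (5 UMIs) and 12 adult cells (4 to 18 UMIs, median 5). The 1 neonatal cell just inside was the deepest of the 20 cycling cells, with 71755 UMIs, while other Cd79a cells of that library reached 117407 UMIs. From the RNA of near-empty droplets, a droplet was expected to receive at most 0.000956 UMIs of any of the 7 genes for neonatal and 0.00176 for adult cells, both for Top2a, which averaged 27.6 and 17.2 UMIs per cycling cell.

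Cell cycle genes that the rule did not use were mostly higher over the cycling cells, summed, than over the other cells. Levels are given in CPM, the summed UMIs of a gene in a class of cells scaled to a common total of UMIs over all genes, and differences as the log2 ratio of cycling to other Cd79a cells of the same library. Genes with at least 20 CPM in either class were compared, and a difference of at least 1.5-fold counted as higher or lower. Because the same cells and libraries chose the members, these counts describe the cells and support nothing about them. Of 5821 genes compared in the neonatal library, 19.2% were higher and 24.2% lower, with a median log2 ratio of −0.09, and of 5455 in the adult library 17.4% were higher and 11.7% lower, with a median of 0.02. Among 47 S phase genes, 40 could be compared in the neonatal library, of which 37 were higher and 0 lower, and 44 in the adult library, of which 42 were higher and 0 lower. Among 43 genes of G2 and mitosis, 38 of the 39 compared were higher in the neonatal cells, and 32 of 33 higher and 1 lower in the adult cells.

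Within S phase, the subunits of the helicase that opens the DNA, the clamp and the enzymes of thymidylate supply were all high. Mcm5, a helicase subunit, stood at 106 CPM in neonatal cycling cells against 10.2 CPM in the others and at 130 against 12.7 CPM in the adult library, log2 ratios of 3.37 (2.95 to 3.78) and 3.35 (3.11 to 3.59). Pcna, the replication clamp, differed by 1.38 (1.09 to 1.67) and 2.21 (2.03 to 2.39). Tyms, thymidylate synthase, differed by 5.11 in both libraries, and Uhrf1, which carries DNA methylation through replication, by 3.71 and 5.34.

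Within G2 and mitosis, some transcripts were near 0 in the other cells and others were not. The list as a whole came to 4661 against 432 CPM in the neonatal and 3095 against 394 CPM in the adult library, and Cenpa, a histone variant of the centromere, stood at 256 against 144 CPM and 222 against 137 CPM. Ccnb2, a mitotic cyclin, reached 206 and 148 CPM in neonatal and adult cycling cells against 0.445 and 0.303 CPM, log2 ratios of 8.85 and 8.93, and was seen in 17 of 20 and 32 of 55 cells. Cenpf, a protein of the kinetochore, differed by 7.99 in each library, and Nusap1, which bundles spindle microtubules, by 7.54 and 6.59. Ccna2, the cyclin that serves both S phase and mitosis, was the highest of all genes over 100 CPM in the neonatal library at 10.14 (8.24 to 13.20), with 96 UMIs in 15 of the 20 cells.

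Abundant chromatin and spindle proteins showed the cycle at higher counts per cell. Of 28 such genes, 27 of 28 compared were higher in the neonatal and 26 of 27 in the adult cells. Hmgb2, a protein that bends DNA, stood at 2880 against 226 CPM (3.67) and 1897 against 311 CPM (2.61). Stmn1, which frees tubulin from microtubules, differed by 4.39 and 5.12, H2afz, a histone variant, by 2.61 and 2.41, and Tuba1b, an alpha-tubulin, by 3.19 and 2.58. In the 5 neonatal cells without a shared barcode the ratios were larger, at 5.96 for Stmn1, 3.78 for H2afz and 5.16 for the list of G2 and mitosis genes, which stood at 3.43 with all 20 cells. Of the replication histones, whose messages mostly lack a poly(A) tail, 23 of 24 compared were higher in the neonatal cells and 12 of 15 higher and 1 lower in the adult cells. Hist1h1b, a linker histone, reached 513 against 6.61 CPM in the neonatal and 477 against 21.5 CPM in the adult library.

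The balance of S phase against G2 and mitosis transcripts varied widely among the cycling cells. The S phase UMIs, as a share of S phase plus G2 and mitosis UMIs without the 7 genes of the rule, came to 39.4% (38.1 to 40.7%) over the neonatal and 56.9% (56.0 to 57.8%) over the adult cycling cells. Cell by cell it ran from 4.09 to 84.9% with a median of 42.3% in the neonatal library and from 0.855 to 92.6% with a median of 61.9% in the adult library. With cuts at 33.3 and 66.7%, 6 neonatal cells lay above the upper cut, 6 between the cuts and 8 below the lower one. The adult cells gave 26, 17 and 12. Summed over the other cells the share was 66.4% (neonatal) and 67.5% (adult), near the upper cut. A high share therefore does not by itself set a cell apart from the other cells. These classes are ranges of a score, and 1 neonatal and 8 adult cells lay within 5 points of a cut. They include 3 neonatal and 12 adult cells with little more cell cycle RNA than their neighbors, described below. The values differed under the alternatives, and the cause was not tested. Thinning changed both the cells that entered and the UMIs counted in them. Among the 14 and 25 cells that met the rule at 2000 UMIs the S phase share was 26.4 and 43.5%, and the 5 neonatal cells without a shared barcode gave 17.7%.

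**Figure D2:**
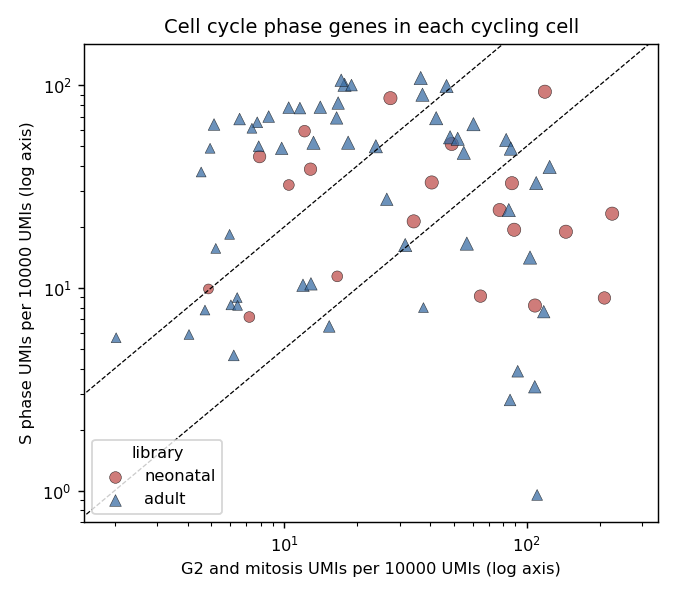
UMIs of G2 and mitosis genes (horizontal log axis) and of S phase genes (vertical log axis) per 10000 UMIs of each cycling cell, genes of the rule left out, in the neonatal (20 cells) and the adult library (55 cells); larger points had more of the 7 rule genes, and the dashed lines mark an S phase share of 66.7 and 33.3%. Cells lie on both sides of both lines in each library, 6, 6 and 8 neonatal and 26, 17 and 12 adult cells from the S phase side to the mitosis side.

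Some members carried little more cell cycle RNA than their neighbors. In other cells at least as deep as the shallowest cycling cell (309 neonatal and 1843 adult cells), the S phase, G2 and mitosis UMIs had a median of 11.1 and 10.96 per 10000 and a 99th percentile of 31.2 and 26.9 per 10000. The cycling cells had a median of 87.2 for neonatal and 78.8 for adult cells, but 3 neonatal cells (1, 2 and 14, counted from the deepest) and 12 adult cells did not exceed the 99th percentile. Requiring at least 10 UMIs of the 7 genes per 10000, a choice made after seeing the data, kept 15 and 33 cells.

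Of the D and E cyclins and their kinase partners, 11 of 14 compared were higher and 1 lower in the neonatal and 6 of 11 higher and 0 lower in the adult cells. Ccne1, the cyclin that opens S phase, was high in both libraries (3.55 and 3.67), as was E2f1, the transcription factor that drives S phase genes (2.55 and 3.85). The D cyclins, which link growth signals to the cycle, were uneven. Ccnd2 stood at 542 against 225 CPM in the neonatal library (1.27) and at 213 against 159 CPM in the adult library (0.42), and Ccnd3 at 62.6 against 119 CPM (−0.92) and 84.2 against 66.1 CPM (0.35). Depth was matched in part by comparing all cycling cells with the 50 neonatal and 192 adult other cells that lay between the lower and upper quartiles of the cycling cells' UMIs, called other cells of this UMI range below. Against them the ratio of Ccnd2 was 0.36 and 0.12, and in the 5 neonatal cells without a shared barcode it was −2.13 (−4.40 to −0.58). Ccnd1 was seen with 0 and 4 UMIs. Cdkn2c, an inhibitor of the D cyclin kinases that is itself made in cycling cells, was higher at 3.14 and 1.66.

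Genes that hold lymphocytes at rest were lower in the larger part. Of 16 compared in each library, 9 were lower and 1 higher in the neonatal and 11 lower and 2 higher in the adult cells, and the summed level of the list differed by −1.09 and −1.03. Btg1, which slows proliferation, stood at 678 against 2544 CPM in the neonatal library (−1.91, −2.04 to −1.77) and at 607 against 1553 CPM in the adult library (−1.35, −1.45 to −1.26). Tsc22d3, a glucocorticoid-induced regulator, differed by −1.55 and −1.30, Txnip, which restrains glucose uptake, by −1.37 and −1.19, and Klf2, a transcription factor of quiescence and egress, by −0.53 and −1.09. The genes that went the other way were inhibitors of the D cyclin kinases, Cdkn2c at 3.14 and 1.66 and Cdkn2d at 0.49, under 1.5-fold, and 0.82. The ratio of the list was −0.85 and −0.96 against other cells of this UMI range and −0.31 in the 5 neonatal cells without a shared barcode, in which Klf2 stood at 0.13 and Btg1 at −1.34.

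The cycling droplets held B cells by their own markers. Cd79b, the partner chain of Cd79a, had a UMI in all 20 neonatal and all 55 adult cells, Ms4a1, which encodes CD20, in 16 and 55, and Pax5, the factor that keeps B cell identity, in 17 and 51. Their levels were lower or level in the cycling cells: Cd79b differed by −0.73 and −0.24, Ms4a1 by −0.49 and 0.09 and Pax5 by −1.09 and −0.38. Of 13 genes of the receptor complex and its kinases, 12 were compared, of which 7 were lower in the neonatal and 0 in the adult cells.

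Markers of other cells were scarce, with the exception of Cd3g in the neonatal library. Of 10 T cell genes, the summed level was 355 CPM in neonatal cycling cells against 483 CPM in the others and 207 against 251 CPM in the adult library. Its most abundant member was Cd2, which B cells also express, with 212 of the 238 neonatal UMIs and 302 of the 341 adult UMIs. Cd3e, Cd4, Cd8a and Thy1 had 0 UMIs in the cycling cells of both libraries, but Cd3g, a chain of the T cell receptor complex, had 18 UMIs in 5 of the 20 neonatal cells (7, 4, 3, 3 and 1), against 40 UMIs in 18 of the 2057 other cells (0.875%), and stood at 26.8 against 2.54 CPM (3.40, 2.51 to 4.24). Both cells rich in Jchain that are described below were among them, with 4 and 3 UMIs, and the part of these transcripts in the other neonatal values was not tested.
Of 10 macrophage and monocyte genes the sum was 77.5 against 331 CPM and 144 against 312 CPM, led by Apoe, and Adgre1, Csf1r, C1qa, C1qb and C1qc were at 0 in all cycling cells. The neutrophil genes S100a8 and S100a9 were at 0, and the erythroid, endothelial, fibroblast and cardiomyocyte lists together gave few UMIs beside Pecam1, which B cells express as well. As a check on droplets that caught 2 cells, Xist and Y-linked UMIs were counted, which shows only pairs of a female and a male cell. None of the 20 neonatal cycling cells held both (upper bound 16.8%), against 49 of the 309 deep other cells (15.9%), which lies within that bound. Among the 20, 1 held only Xist, 17 only Y-linked UMIs and 2 neither. Pairs of the same sex pass this check, and 61.4% of the other neonatal cells held only Y-linked UMIs. In the adult library, made from male mice, the check could not be applied.

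Which stage of B cell life the cycling cells belonged to was asked with lists of stage genes. Genes of follicular B cells, the mature recirculating kind, were lower in sum in both libraries. Of 10 genes, 8 of the 9 compared were lower and 0 higher in the neonatal cells, and 5 of 10 lower and 0 higher in the adult cells, and their sum differed by −1.42 (neonatal) and −0.82 (adult). Fcer2a (CD23; ENSMUSG00000005540) had 13 UMIs in 5 of the 20 neonatal cycling cells, at most 7 in a cell, and stood at 19.4 against 177 CPM (−3.19, −4.11 to −2.42). In the adult library it had 201 UMIs in 35 of 55 cells, from 0 to 20 with a median of 1, and stood at 122 against 286 CPM (−1.23, −1.44 to −1.03). Ighd, which encodes IgD, differed by −2.19 and −1.01, Ccr7, the receptor that leads to lymphoid zones, by −1.47 and −1.04, and Cd55, a complement inhibitor, by −1.38 and −1.34. Cr2 (CD21) stood at −1.43 on 7 UMIs in 3 neonatal cells and at −0.47 in the adult cells.

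Per cell the follicular genes made up 0.439 to 44.9 UMIs per 10000 (median 7.75) in the neonatal cycling cells, and 2 of the 20 lay above the median of the deep other cells (22.7). In the adult library they made up 0.404 to 41.3 per 10000 (median 14.2), and 10 of 55 lay above that median (29.1). The groups overlapped in both libraries. The sum was also lower against other cells of this UMI range (−1.04 and −0.74) and without the shared barcodes (−0.97 and −0.91), where the neonatal ratio of Ccr7 was −0.76.

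Genes of B1 cells, self-renewing cells that are at least in part of fetal origin, gave values that differed between the libraries and between the sets of cells compared. Of 12 B1 genes, 8 of the 9 compared were higher in the neonatal and 4 of the 8 compared in the adult cycling cells, with 0 lower in either. The sum differed by 1.75 (neonatal) and 0.09 (adult). S100a6, a calcium-binding protein that carries most of that sum, stood at 2782 against 622 CPM (2.16) in the neonatal and 612 against 643 CPM (−0.07) in the adult library. It had 0 to 575 UMIs per neonatal cycling cell with a median of 5.5, and 7 of the 20 cells held at least 100 (575, 167, 258, 127, 159, 208 and 206 in cells 1, 2, 3, 6, 8, 11 and 14, counted from the deepest), while 7 held none. Cells 1, 2 and 14, whose cell cycle RNA did not exceed the 99th percentile of deep other cells, held 948 of its 1867 UMIs (50.8%) and 44.3% of the UMIs of the B1 list. With at least 10 UMIs of the 7 genes per 10000, the neonatal ratio was 1.61 for S100a6 and 1.36 for the list. Ctla4, an inhibitory receptor, stood at 2.78 and −0.12, but 36 and 17 of its 79 neonatal UMIs lay in cells 4 and 9, the Jchain-rich cells described below, without which the neonatal ratio was 1.37. Anxa2, an annexin of the membrane, stood at 2.69 and 1.03, Bhlhe41, a transcription factor of B1 cells, at 0.95 and 1.10, and Zbtb32, another transcription factor, at 1.82 and 1.18. Cd5, which defines the B1a kind, had 9 UMIs in 6 neonatal and 2 in 2 adult cells. Itgam, which encodes the CD11b of B1 cells, had 5 and 4 UMIs.

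With each cell thinned to 2000 UMIs, at least 2 B1 genes were seen in 7 of 20 neonatal cycling cells (35%, 15.4 to 59.2%). The other neonatal cells gave 312 of 2057 (15.17%). In the adult library these were 18 of 55 cycling cells (32.7%, 20.7 to 46.7%) and 532 of 3556 other cells (14.96%). The other cells in these shares were of all depths before thinning. Against other cells of this UMI range the B1 sum came to 0.25 for neonatal cells and −0.33 for adult cells, where its sign turned. In that comparison S100a6 stood at 0.32 and −0.45, Ctla4 at 1.65 and −0.52, Anxa2 at 0.91 and 0.65, and Zbtb32 at 0.04 (−0.46 to 0.53) and 0.54. Of the neonatal cycling cells, 12 lay above the median of the deep other cells (10.3 per 10000) and 4 above their 90th percentile (66.1), and of the adult cells 31 above the median (4.83) and 3 above the 90th percentile (27.8). The 5 neonatal cells without a shared barcode gave −1.07, with Anxa2 at −0.99 and Bhlhe41 at −1.09. All 7 neonatal cells with at least 100 UMIs of S100a6 carried a shared barcode, as did every neonatal cycling cell of at least 23887 UMIs. Depth and shared barcodes therefore cannot be told apart in the neonatal B1 values, and their part in the B1 values was not tested.

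**Figure D3:**
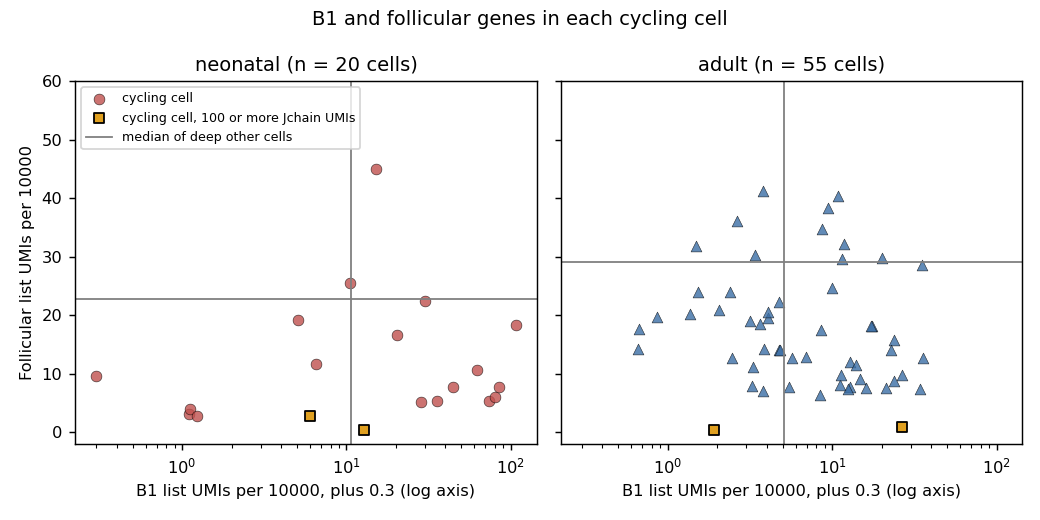
UMIs of B1 genes (horizontal log axis, with a small constant added) and of follicular B genes (vertical axis) per 10000 UMIs in each cycling cell of the neonatal and the adult library; orange squares are cells with at least 100 Jchain UMIs, and gray lines are the medians of deep other cells (at least 10750 UMIs for neonatal and 5736 for adult cells). Most cycling cells lie under the follicular median, all but 2 of 20 neonatal and 10 of 55 adult cells, while B1 values lie on both sides of their median.

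Rag1, Sox4, Vpreb3 and Myb, genes of early B cells, were found together in 3 neonatal cells, which were singled out after their values were seen. The deposited counts of Igll1, Vpreb1, Vpreb2, Rag2, Dntt and Bok were 0 in all cycling cells of both libraries. All but Vpreb1 were also 0 in every other cell, and Vpreb1 had a UMI in 7 of 2057 and 14 of 3556 of them, so that these zeros do not set the cycling cells apart. Rag1, a subunit of the recombinase that cuts receptor genes, had 14 UMIs in 4 of the 20 neonatal cycling cells (5, 2, 2 and 5 in cells 2, 18, 19 and 20), against 37 UMIs in 20 of the 2057 other cells (0.972%), and 0 in the 55 adult cycling cells. Cells 18, 19 and 20 were the shallowest neonatal members, with 12459, 12313 and 10750 UMIs. They held 10, 11 and 10 UMIs of Sox4, a transcription factor of immature B cells, 9, 42 and 10 UMIs of Vpreb3, a chaperone of early receptor chains, and 3, 5 and 3 UMIs of Myb, a transcription factor of progenitors. They held 2, 2 and 0 UMIs of Cd74, the chaperone of MHC class II, whereas the other 2057 neonatal cells had a median of 71 and only 9 of them had 2 or fewer. Igkc, the kappa light chain, was present with 26, 21 and 17 UMIs and Ighm with 35, 25 and 34, and no UMI of S100a6 or Ccnd2 was seen. None of the 3 carried a shared barcode. Cell 16 held 14 UMIs of Vpreb3, 5 of Sox4 and 7 of Myb as well, but 67 of Cd74 and none of Rag1. Cell 2 held 5 UMIs of Rag1, 19 of Vpreb3, 6 of Myb and 4 of Cd93. It held none of Sox4, but 598 of Cd74 and 167 of S100a6.

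**Figure D4:**
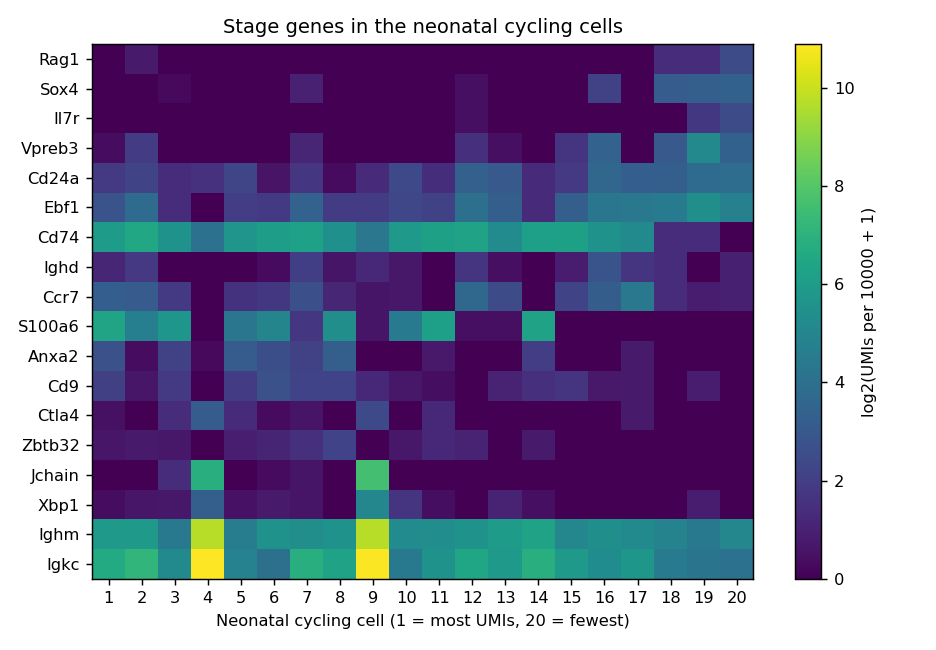
Heat map of stage and immunoglobulin genes (rows) in the 20 neonatal cycling cells (columns, 1 having the most UMIs), colored by log2 of UMIs per 10000 plus 1. Rag1, Sox4 and Vpreb3 are found together and Cd74 is lowest in cells 18 to 20, S100a6 reaches at least 100 UMIs in cells 1, 2, 3, 6, 8, 11 and 14, and Jchain stands out in cells 4 and 9.

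Summed over all cells the early and transitional lists did not lead. The pro-B and pre-B list differed by −1.08 and −0.996, a sum carried by Ebf1. This transcription factor, which all B cells need, stood at 742 against 1753 CPM and 622 against 1233 CPM. Of the 14 genes of the list, 3 were compared in the neonatal library, 2 of them higher and 1 lower. In the adult library 1 was compared, and it was lower. With each cell thinned to 2000 UMIs, at least 2 genes of the list were seen in 5 of 20 neonatal (25%, 8.66 to 49.1%) and 0 of 55 adult cycling cells. All other cells gave 8.70 and 3.21%. The transitional list, for cells newly arrived from the bone marrow, differed by −0.35 (neonatal) and −0.07 (adult). Within it Cd24a, a surface glycoprotein high on young B cells, stood at 0.26 and 0.79, and Cd93, the defining antigen of the stage, at −0.03 on 15 UMIs and −1.40 on 7 UMIs. Against other cells of this UMI range the transitional list stood at 0.11 and −0.02, and in the 5 neonatal cells without a shared barcode it stood at 0.27 and the pro-B and pre-B list at 0.85. In those 5 cells Sox4 differed by 3.805, Vpreb3 by 1.52, Cd24a by 1.88 and Cd74 by −2.48. Cells 18, 19 and 20, singled out above after their Sox4, Vpreb3 and Cd74 values were seen, were among the 5, so these ratios partly restate that choice. Of 8 regulators of fetal-type B cells, 3 were compared in the neonatal library, of which 2 were higher and 1 lower, and 1 in the adult library, which was higher. Arid3a, a transcription factor, stood at 1.55 and 1.23, and Igf2bp3, an RNA-binding protein, at −0.64 (−1.53 to 0.12) on 14 neonatal UMIs, while Lin28b and H19 had 0 UMIs in the cycling and the other cells of the neonatal library.

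Marginal zone genes gave mixed values. Their sum differed by 0.57 and 0.53, with 2 of 6 compared genes higher and 3 lower in the neonatal and 2 of 7 higher and 0 lower in the adult cells. Cd9, a tetraspanin that B1 and plasma cells also carry, stood at 2.23 and 0.76, and Mzb1, which helps to assemble IgM, at 0.94 and 0.55, whereas Cd1d1, the lipid-presenting molecule of the stage, stood at −1.09 and 0.24 and Notch2, its fate receptor, at −0.66 and −0.44. The sum stood at −0.04 and 0.30 against other cells of this UMI range, and Cd9 at 0.93 and 0.46. In the 5 neonatal cells without a shared barcode Cd9 stood at 0.39 (−1.90 to 1.94). S1pr3 had 0 UMIs in all cycling cells.

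Germinal center genes were scarce. Bcl6, the factor that directs the germinal center, had 3 UMIs in 2 neonatal and 33 UMIs in 17 adult cycling cells, with ratios of −2.76 and −0.42. Fas, a death receptor of germinal center cells, was higher in the adult cells at 21.8 against 5.03 CPM (2.11), with 36 UMIs in 14 cells. The list as a whole came to 56.6 CPM in neonatal and 128 CPM in adult cycling cells, log2 ratios of −0.31 (−0.82 to 0.16) and 0.73 (0.52 to 0.93). The neonatal ratio kept its sign in 11 of 15 alternatives, and it was 1.75 (0.91 to 2.48) in the 5 cells without a shared barcode and 0.18 as a mean over cells.

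The sum of the plasmablast list rested on 4 cells. It differed by 2.97 for neonatal and 1.35 for adult cells, with 8 of 10 and 6 of 9 compared genes higher. Jchain (ENSMUSG00000067149, chr5:88519809-88527891, minus strand), which joins IgM and IgA into polymers, had 1317 UMIs in 5 neonatal cells and 869 UMIs in 9 adult cells. Neonatal cells 4 and 9 held 531 and 775 of them (99.2%) and adult cells 17 and 32 held 169 and 665 (96.0%). Adult cell 32 had 8 UMIs of the 7 rule genes and 21.8 S phase, G2 and mitosis UMIs per 10000, under the 99th percentile of deep other cells (26.9), and with at least 10 UMIs of the 7 genes per 10000 the adult list stood at 0.34. Without these 4 cells, an alternative added after seeing the data, the list stood at 0.07 (−0.13 to 0.26) and −0.17 (−0.30 to −0.04), and when the 4 Jchain-rich cells among the adult other cells were left out as well the adult value was 0.33. Against other cells of this UMI range it stood at 2.96 and −0.06 (−0.15 to 0.02), and the 192 adult cells of that range included all 4 Jchain-rich cells outside the cycle, with 2921 of their 2931 Jchain UMIs. With each cell thinned to 2000 UMIs the adult value was −0.08 (−0.99 to 0.70). Per cell it made up 0.512 to 262 UMIs per 10000 in the neonatal cycling cells, with a median of 4.01 that lay close to the 3.16 of deep other cells, and 0 to 316 with a median of 2.66 in the adult cells against 2.12. Above the 90th percentile of the deep other cells (6.77 and 4.84 per 10000) lay 6 of the 20 neonatal and 10 of the 55 adult cells.

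The 2 neonatal cells were alike in their receptor. Cell 4 held 3807 UMIs of Ighm (ENSMUSG00000076617, chr12:113418558-113422730, minus strand), which encodes the IgM heavy chain, and 8661 of Igkc, and cell 9 held 3265 and 7053. Both had 20 UMIs of the heavy chain variable gene Ighv5-17 as their leading one, and Igkv8-30 as their leading kappa variable gene, with 32 and 26 UMIs. Among the 2057 other neonatal cells, Igkv8-30 had a UMI in 5 (at most 1 each) and Ighv5-17 in 16 (at most 2 each). Iglv1, a lambda variable gene, differed between them, with 1 UMI in cell 4 and 39 in cell 9. Xbp1, the factor that expands the secretory apparatus, had 40 and 126 UMIs. Both held the transcripts of cycling cells, with 7 and 6 of the rule's genes and 193 and 84 UMIs of them, and both carried a shared barcode. In the adult library, cell 32 led with Ighv5-9-1 (12 UMIs), Igkv10-95 (17) and Igkv4-57-1 (15), and 1 of the 4 Jchain-rich cells outside the cycle led with Ighv5-9-1 (27 UMIs) and Igkv4-57-1 (20).

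These cells also set the immunoglobulin levels. Ighm stood at 14404 against 4058 CPM (1.83) in the neonatal and 4705 against 3172 CPM (0.57) in the adult cycling cells, and the Jchain-rich cells held 73.2 and 32.8% of its UMIs. Igkc stood at 1.71 and 0.68 with them and at −0.38 and −0.12 without them, and at −0.01 in the adult library when the Jchain-rich cells among the other cells were left out as well. In the 5 neonatal cells without a shared barcode Ighm stood at −0.32 and Igkc at −1.58, and against other cells of this UMI range the adult Ighm ratio was −0.12. Few cycling cells held switched constant genes. At least 10 UMIs of IgG, IgA or IgE constant genes were found in 0 of 20 neonatal cells (upper bound 16.8%) and in 4 of 55 adult cells (7.27%, 2.02 to 17.6%). The other cells gave 1 of 2057 and 18 of 3556 (0.506%), and the deep other adult cells 17 of 1843 (0.922%). The 4 adult cells (cells 4, 9, 17 and 31) also held Ighm, with 182, 465, 758 and 29 UMIs, while adult cell 34 held none. Of the 4 adult cells, 2 (cells 4 and 31) had 15.4 and 23.4 S phase, G2 and mitosis UMIs per 10000, under the 99th percentile of deep other cells. Of the 137 adult UMIs of Igha, the IgA gene, 131 (95.6%) lay in cell 4, and 5 further cells held 1 or 2 each. Lambda UMIs exceeded kappa in 5 of 20 (25%, 8.66 to 49.1%) neonatal and 3 of 55 (5.45%, 1.14 to 15.1%) adult cycling cells, against 15.6 and 8.04% of the other cells, within the intervals.

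Antigen presentation and homing lists were lower in sum, with fewer of their genes past 1.5-fold in the adult cells. All 9 MHC class II genes compared were lower in the neonatal and 4 of 9 in the adult cells, with summed ratios of −0.96 and −0.53. Cd74 stood at 5375 against 10626 CPM (−0.98) and 9825 against 13811 CPM (−0.49), and H2-Ob, which modulates peptide loading in B cells, at −1.37 and −1.16. Of 14 homing and egress genes, 7 were lower and 1 higher in the neonatal and 4 lower and 0 higher in the adult cells, with sums of −0.83 and −0.60. Cxcr4, the receptor for the niche chemokine Cxcl12, stood at −1.08 and −1.30, Gpr183, which positions B cells by oxysterols, at −1.11 and −1.21, and S1pr1, the egress receptor, at −1.09 and −1.02. Itgb1, an integrin chain, was the neonatal exception at 1.51, with 0.45 in the adult cells. Against other cells of this UMI range the MHC class II sum was −0.89 and −0.42 and the homing sum −0.66 and −0.62. In the 5 neonatal cells without a shared barcode these sums were −2.34 and −0.69. Cells 18, 19 and 20, with 2, 2 and 0 UMIs of Cd74, were among those 5.

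Activation genes were mixed. Of the 14 activation genes compared in the neonatal library, 5 were higher and 6 lower, and of the 12 in the adult library 1 was higher and 4 lower, with a sum of −0.51 in each. Dusp2, a phosphatase induced by signaling, stood at −1.65 and −1.13, Cd83 at −0.77 and −0.47 and Cd69, the early activation antigen, at −0.71 and −0.89. Myc, a transcription factor of cell growth, stood at 84.9 against 122 CPM (−0.52) and 68.4 against 102 CPM (−0.57). Ebi3, a cytokine subunit, was higher in both libraries at 1.46 and 1.05. Egr1, an immediate early gene, stood at 0.98 and 0.25.

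Nearly all nucleotide synthesis genes and most oxidative phosphorylation genes were higher, and glycolysis and ribosome biogenesis genes were so in part. Of the nucleotide synthesis genes, 13 of 14 compared were higher in the neonatal and 16 of 16 in the adult cells, with sums of 1.63 and 1.65, a list that shares genes such as Dut, Rrm1, Tk1 and Tyms with the S phase list. Beyond these, Mthfd2, a mitochondrial enzyme of folate metabolism, stood at 2.02 and 1.93 and Impdh2, which makes guanine nucleotides, at 1.17 and 1.09. Of 20 oxidative phosphorylation genes, 16 and 15 were higher and 0 lower, with sums of 0.74 and 0.70 that were close to those against other cells of this UMI range (0.69 and 0.70). Ndufc2 of complex I stood at 1.16 and 0.85. Of 12 glycolysis genes compared, 6 were higher and 2 lower in the neonatal and 6 higher and 0 lower in the adult cells, with sums of 0.69 and 0.73, led by Gapdh at 1.23 and 1.27, while Aldoa stood at −1.16 and −0.43; in the 5 neonatal cells without a shared barcode the glycolysis sum was −0.34, Gapdh 0.27 and the nucleotide synthesis sum 0.99. Of ribosome biogenesis genes, 10 of 17 and 7 of 15 were higher and 0 lower. Of DNA damage genes, 5 of 9 and 4 of 8 were higher, among them Chek1, a kinase of the replication checkpoint, at 4.82 in the adult cells, while Trp53 stood at −0.13 and 0.32.

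The interferon and survival lists were mixed. Of the interferon response genes, 1 of 5 compared was higher and 2 lower in the neonatal and 3 of 11 higher and 1 lower in the adult cells, and the sums (0.62 and 0.59) were led by Ifi27l2a at 0.86 and 0.85. Without the shared barcodes the neonatal sum was 1.27 and Ifi27l2a 1.70. Of the survival genes, 1 of 10 was higher and 1 lower, and 1 of 9 higher and 2 lower. Mcl1, a guard against apoptosis, stood at −0.53 and −0.39, and Tnfrsf13c, the receptor for the B cell survival factor BAFF, at −0.04 and 0.37.

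Beyond the lists, some genes with the highest or lowest ratios among those of at least 100 CPM were high or low in both libraries. Spc24, a kinetochore protein, stood at 6.76 (6.14 to 7.43) and 6.47 (6.03 to 6.92), and Prc1, which bundles the midzone of the spindle, at 5.72 and 5.99. Txn1, thioredoxin, stood at 2.03 and 2.00 and Siva1, an apoptosis regulator, at 1.57 and 1.83. Sdf2l1, a chaperone of the endoplasmic reticulum, stood at 3.90 and 1.68. Ly6c2, a surface antigen of plasma cells among others, stood at 3.82 in the neonatal library, where 58.0% of its UMIs lay in 1 cell, and at 2.67 without that cell. Cfp, the complement factor properdin, was among the leading genes of the adult library alone, at 1.75, with 0.75 in the neonatal library.

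At the low end, Neurl3, a ubiquitin ligase, stood at −4.10 on 4 UMIs in the neonatal and −1.41 in the adult cycling cells. Plk2, a kinase of the polo family, stood at −2.30 and −2.47, Satb1, an organizer of chromatin in lymphocytes, at −2.13 and −1.41, and Smad7, an inhibitor of TGF-beta signaling, at −2.03 and −1.44. Plk2 stood at −1.51 and −2.35 and Satb1 at −1.71 and −1.42 against other cells of this UMI range, and in the 5 neonatal cells without a shared barcode Plk2 stood at −1.30, Satb1 at −1.33 and Neurl3 at −1.18. Treml2, a receptor of the TREM family, was low in the neonatal library at −2.54, with −0.97 in the adult library. Ighg2c, which encodes an IgG heavy chain, had 7 UMIs in 4 adult cycling cells, at 4.24 against 101 CPM (−4.58), but 3271 of the 3333 UMIs in the other cells (98.1%) lay in 1 cell, without which those stood at 1.88 CPM.

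**Figure D5:**
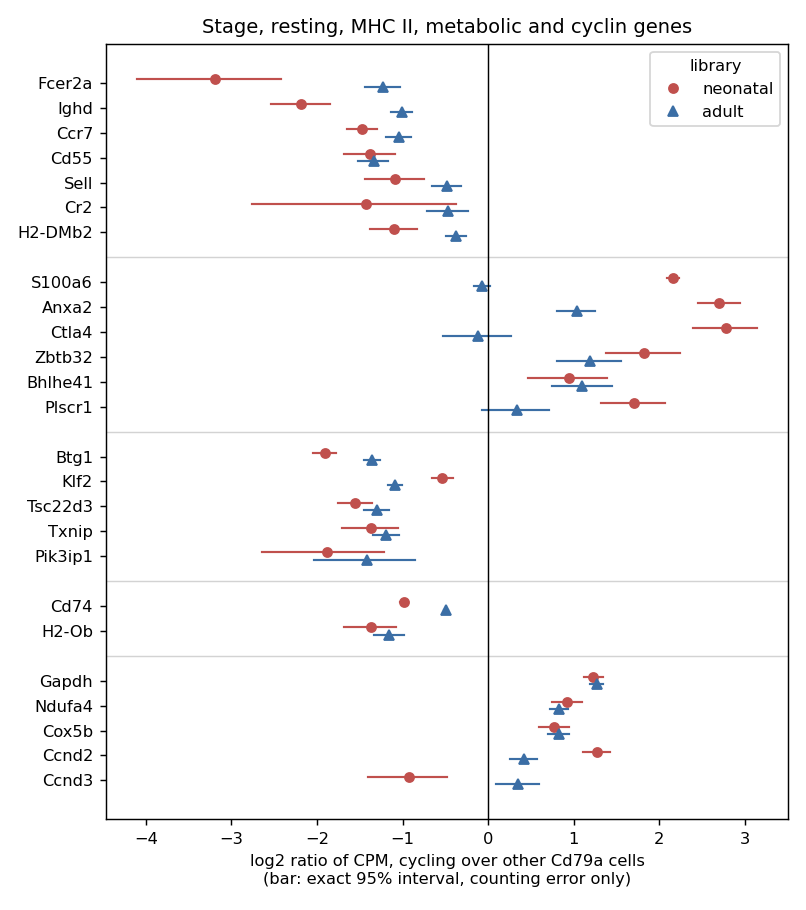
Log2 ratio of CPM in cycling to other Cd79a cells (horizontal axis) for genes of the follicular, B1, quiescence, MHC class II, metabolic and cyclin lists (rows, in that order), with exact 95% intervals for counting error, neonatal as circles and adult as triangles. The genes shown are a selection of each list; those of the follicular, quiescence and MHC class II lists lie below 0 in both libraries, Cdkn2c (3.14 and 1.66) and Cdkn2d (0.49 and 0.82), quiescence list genes that went the other way, are not plotted, and S100a6 (2.16 and −0.07), Ctla4 (2.78 and −0.12) and Ccnd3 (−0.92 and 0.35) lie on opposite sides of it.

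Side by side, the summed levels of the follicular, quiescence, MHC class II and homing lists were lower in the cycling cells of both ages, with 8 of 9, 9 of 16, 9 of 9 and 7 of 14 compared genes lower in the neonatal and 5 of 10, 11 of 16, 4 of 9 and 4 of 14 in the adult cells. Those of the cell cycle, nucleotide synthesis and oxidative phosphorylation lists were higher in both. The neonatal cells had S100a6 at 2782 CPM and the adult cells at 612 CPM, Rag1 in 4 of 20 and 0 of 55 cells, and switched constant genes in 0 of 20 and 4 of 55 cells. These differences between the libraries were not tested.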

How the data were processed

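The authors pooled heart B cells of 6 mice per age, made 1 droplet library per age (10x 3′ chemistry) and counted UMIs with Cell Ranger against mm10; the deposited matrices hold raw UMI counts of all barcodes, and their headers give version 3.0.2. The antibody tags in the matrices held 3 and 2 UMIs and were not used. Counts were summed per symbol (36 duplicates) and per class of cells, scaled to CPM and compared as log2 ratios with exact conditional binomial intervals; a count of 0 was set to 3 counts. Genes of at least 20 CPM in either class were compared. The text names genes of the lists and, in each library, the 10 genes of at least 100 CPM with the highest and the 10 with the lowest ratio. Members and lists were chosen with earlier results of these data known. No doublet caller was run; droplets with most UMIs, with other cells' markers or with both sexes' transcripts were left out as alternatives. On simulated counts the sign of all 200 altered genes was recovered and intervals covered 96% (neonatal, 5180 genes) and 94% (adult, 4908 genes) of them. The simulation drew the summed counts of each class with counting error alone and without variation between cells. It therefore checks the calculation and cannot show how the intervals hold where a few cells carry a sum. Some genes of the lists are not reported here by name. The work was done in Python 3.11.15 with scipy 1.17.1, numpy 2.4.6, matplotlib 3.10.9 and pandas 2.3.3.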

Additional observations from a re-analysis of the deposited data

Results flagged for a closer look

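Of 312 list genes compared in both libraries, 28 had ratios on opposite sides of 0, a difference that was not tested. In 4 of them both ratios were at least 0.25 in size with counting intervals that left out 0, which was not so for S100a6, Ctla4 and the others. The log2 ratio of cycling to other cells was 0.37 (neonatal) and −0.26 (adult) for Ahnak, 0.41 and −0.61 for Bcl2l11, −0.92 and 0.35 for Ccnd3, and 0.75 and −1.01 for Hist1h2bc. The opposite signs of Ahnak were lost against other cells of the cycling cells' UMI range, where it stood at −0.55 and −0.82, and its neonatal ratio kept its sign in 10 of 15 alternatives. Droplets outside the rule also held UMIs of at least 3 of the 7 genes. Among droplets with over 10% mitochondrial UMIs these were 7 of 397 in the neonatal and 3 of 490 in the adult library, with median mitochondrial shares of 16.4 and 15.7%. Among neonatal droplets without a Cd79a UMI it was 1 of 14. Among adult droplets of at least 500 but under 2000 UMIs it was 2 of 173, with 962 and 1012 UMIs and 4 of the genes each. The same 2 barcodes held 42447 and 44960 UMIs and all 7 genes in the neonatal library, so that the adult droplets held 2.27 and 2.25% of those numbers.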

How the results depend on the processing

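No paired analysis was possible because each age had 1 library, and no replicate could be left out. Values are given as neonatal and adult. Of 212 values recomputed for the main results 124 kept their size, and 77 of 104 gene and list ratios kept their sign under all 15 alternatives that gave one; the cause of a move was not tested. The cycling cells were 5.2 and 4.4 times as deep as the others at the median, and an interval covers counting error only. With a minimum of 4000 UMIs the adult B1 sum was −0.011. With a mitochondrial limit of 20% the neonatal S phase share was 41.7%. With at least 2 of the 7 genes the share of cycling cells was 1.88 and 2.24%, the B1 sum 1.56 and 0.42, follicular −0.75 and −0.56, plasmablast 2.40 and 0.98, the S phase share 43.4 and 58.2%, lower genes 706 and 237, higher adult genes 595 and adult Ahnak 0.15. With at least 4 the B1 sum was 1.38 (neonatal), plasmablast 3.12 and 1.57, follicular −0.99 (adult), the S phase share 55.6% (adult) and Ahnak −0.13 (neonatal). With each cell thinned to 2000 UMIs the adult share was 0.692%, follicular −1.61 (neonatal), plasmablast 3.30 and −0.077, B1 0.69 (adult), the S phase share 26.4 and 43.5%, higher genes 3748 and 3242, lower genes 757 and 982, and adult Igkc −0.29, Ahnak 0.67 and Bcl2l11 0.087. Without shared barcodes the neonatal share was 0.248%, B1 −1.07, follicular −0.97 and −0.91, plasmablast 0.80 and 1.54, the neonatal S phase share 17.7%, higher genes 2577, transitional 0.27, pro-B and pre-B 0.85, glycolysis −0.34, Ighm −0.32, Igkc −1.58, Xbp1 −1.15, Anxa2 −0.99, Bhlhe41 −1.09, Vpreb3 1.52, Klf2 0.13, Ccnd2 −2.13 and Ahnak −0.92. Without droplets holding other cells' markers plasmablast was 3.16 and the S phase share 36.1% (neonatal) and B1 0.18 (adult). Without the 1% of droplets with most UMIs the neonatal share was 0.535%, B1 1.26, plasmablast 0.36 and 1.502, the neonatal S phase share 27.9%, Igkc −0.74, Ahnak −0.81 and Bcl2l11 −0.065. As a mean over cells B1 was 2.14 and 0.77, follicular −1.53 and −0.96, plasmablast 2.74 and 1.83, the S phase share 31.9 and 54.5% and adult Ahnak 0.25. Against other cells of the same UMI range B1 was 0.25 and −0.33, follicular −1.04 and −0.74, adult plasmablast −0.061, Ighm −0.12 and Jchain −0.12, and neonatal transitional 0.11, marginal zone −0.037 and Ahnak −0.55. With no minimum CPM, 4488 and 4308 genes were higher and 2665 and 1899 lower, and with 50 CPM 625 and 543 higher and 739 and 339 lower. Of 3 alternatives chosen after seeing the data, at least 10 UMIs of the 7 genes per 10000 gave an adult share of 0.914%, B1 1.36 and 0.23, follicular −1.82 and −1.06, plasmablast 3.51 and 0.34, S phase shares of 35.7 and 51.6%, 1014 lower adult genes and neonatal Ahnak −0.081, leaving out cells with 100 Jchain UMIs gave neonatal B1 1.90, follicular −1.25, plasmablast 0.070 and 0.33, a neonatal S phase share of 37.5%, and Igkc −0.38 and −0.0093, and leaving out only those among the cycling cells gave the same neonatal values and adult plasmablast −0.17, Igkc −0.12 and Jchain −2.09.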
